A study of Homo sapiens with 43 samples.

Results

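The 33 genes described here encode factors that build ribosomes in the nucleolus. They were chosen by symbol from the known machinery of ribosome biogenesis and matched through their Ensembl identifiers to 33 of the 58780 Ensembl genes in the count tables. A ribosome starts with RNA polymerase I, which copies the ribosomal DNA into a long precursor RNA. Small nucleolar ribonucleoproteins then guide the chemical modification of that precursor, and a succession of assembly factors folds, cuts and carries the small and large subunits out of the nucleus. Many of these genes are known targets of the transcription factor MYC, and growing cells, B lymphoblasts and hepatoma cells among them, express them at high levels. The set holds 3 subunits of RNA polymerase I, 3 core proteins of the C/D box ribonucleoproteins, 3 of the H/ACA box ribonucleoproteins, 6 nucleolar proteins with several roles, 8 factors of the small subunit and 10 of the large subunit.

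Polyadenylated RNA was sequenced from 43 libraries of established human cell lines, in 22 groups. GM12878 is a lymphoblastoid line, that is, B cells immortalised with Epstein-Barr virus, and HepG2 is a hepatocellular carcinoma line. In a stimulus panel, GM12878 cells received dexamethasone (Dex, a glucocorticoid, 500 nM), doxorubicin (Dox, a topoisomerase poison, 500 nM), interferon gamma (IFNg, 100 ng/mL), interleukin 2 (IL2, 50 U/mL), tumour necrosis factor alpha (TNF, 25 ng/mL) or lipopolysaccharide (LPS, 10 ng/mL) for 6 h, or 1 of the vehicles DMSO and PBS. Each panel group had 2 libraries, except Dox, which had 1. In a pretreatment experiment, GM12878 cells were given 10 µM BRM014 or DMSO 30 min ahead of Dex, IFNg or vehicle, and were collected after a further 1 h or 6 h. This gave 12 groups of 2 libraries. Times given for this experiment count from Dex, IFNg or vehicle, and BRM014 had been given 30 min earlier. HepG2 cells received 10 µM BRM014 or DMSO for 24 h, with 2 libraries in each group. BRM014 is a small molecule that blocks the ATPases SMARCA4 and SMARCA2, the motors of the BAF complexes, which move nucleosomes. No group carried a genetic change, and each line is a single cell line. The labels do not say that replicates came from separate cultures, so p-values measure only the spread between these libraries.

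GM12878 libraries held between 12.9 and 22.9 M counts (M, counts in units of 1000000). The HepG2 libraries held between 3.06 and 19.9 M, and the shallowest was BRM014 replicate 2. Marker genes went with the labelled lines. All 7 B cell markers were at 1 TPM (transcripts per M transcripts, scaled for gene length) or more in every GM12878 library and summed to between 0.24 and 3.94 TPM in HepG2, while 7 liver markers summed to between 13394 and 23577 TPM in HepG2 and between 0.88 and 2.91 TPM in GM12878. In such bulk samples, fewer cells and less RNA per cell cannot be told apart. Use of the strand in counting is not stated by the labels or headers, which leaves the 14 members that overlap a gene on the opposite strand and the 5 that overlap one on their own strand uncertain. PPAN, for example, shares its strand with a readthrough transcript into P2RY11. NPM1 has 49 annotated pseudogenes that could take some of its reads.

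The promoters are shown because MYC binds a short DNA element, the E-box, and MYC was measured beside these genes in every comparison. RefSeq promoter windows (GRCh38.p14, 250 bases before to 50 after the start) were found for 27 of the 33 members; NOP58, NOLC1, RRP12, BOP1, RRP1B and RRS1 had none. The canonical E-box CACGTG, which reads the same on both strands, stood in 9 of the 27 windows, or 33.3%. It stood in 8.88% of the windows of protein-coding genes, in 32.6% of the windows of other ribosome biogenesis genes and in 4.76% of those of ribosomal protein genes. In all 9 members it began between 10 bases before and 36 bases after the start. A match is a description of letters and does not show binding. The stretch from 70 bases before to 30 after the RefSeq start is given for 5 members with the E-box, 5′ to 3′ on the strand of the gene, with the E-box in capitals. They are FBL on chr19:39846350-39846449 (minus strand), NOP14 on chr4:2963377-2963476 (minus), WDR43 on chr2:28894597-28894696 (plus), UTP20 on chr12:101280035-101280134 (plus) and PES1 on chr22:30591881-30591980 (minus).
FBL: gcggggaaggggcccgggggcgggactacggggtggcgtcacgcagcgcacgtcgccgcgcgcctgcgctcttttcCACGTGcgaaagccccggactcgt
NOP14: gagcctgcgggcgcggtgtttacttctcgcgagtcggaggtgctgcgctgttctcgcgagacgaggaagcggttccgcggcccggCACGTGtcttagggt
WDR43: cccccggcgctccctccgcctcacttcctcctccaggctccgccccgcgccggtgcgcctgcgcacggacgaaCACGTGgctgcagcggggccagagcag
UTP20: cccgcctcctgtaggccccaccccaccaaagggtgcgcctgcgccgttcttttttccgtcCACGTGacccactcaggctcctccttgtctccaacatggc
PES1: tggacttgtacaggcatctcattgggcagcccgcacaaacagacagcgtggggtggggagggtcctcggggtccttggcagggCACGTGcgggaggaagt

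All 33 members were expressed in both lines. In TPM, a scale that allows levels to be compared between genes, their means ran between 8.31 and 2430 in the 2 HepG2 DMSO libraries, with a median of 47.4. In the 4 GM12878 vehicle libraries of the panel they ran between 6.22 and 1406 TPM, with a median of 42.6. NPM1 (nucleophosmin, a histone and ribosome chaperone) was the most abundant in both lines, at 2430 ± 245 TPM in HepG2 (SD, n = 2) and 1406 ± 253 TPM in GM12878 (SD, n = 4). NCL (nucleolin, an RNA-binding protein of the nucleolus) followed at 1154 ± 111 TPM in HepG2 and 403 ± 14.9 TPM in GM12878. The methyltransferase FBL (fibrillarin) stood at 295 ± 0.276 TPM in HepG2 and 319 ± 10.1 TPM in GM12878. The lowest 2 in both lines were UTP20 and UTP15, factors of early small subunit assembly. UTP20 was at 8.31 ± 1.35 TPM in HepG2 and 6.22 ± 0.414 TPM in GM12878. The neighbours NOP16, NOP14 and DKC1 in GM12878, at 50.9, 50.8 and 50.9 TPM, did not differ beyond their spread. The lines were sequenced in separate experiments, so these levels are a description and were not tested. WDR12, of the large subunit, had the highest ratio of HepG2 to GM12878 TPM, at 3.36, and PPAN the lowest, at 0.527.

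BRM014 raised most of the set in HepG2 cells. After 24 h, 20 of the 33 members were higher and none was lower than in DMSO at an adjusted p under 0.05 (edgeR quasi-likelihood test with Benjamini-Hochberg adjustment over all 13349 genes tested). Over all genes tested, 19.3% were called higher and 22.8% lower. In the counts that follow, genes that rose or fell are those called higher or lower. The members' median log2 fold change was 0.43, against -0.01 over all genes. Their fold changes lay between -0.02 and 0.87, and 32 of 33 were above 0. In 28 members both BRM014 libraries stood above both DMSO libraries, where 33.2% of all genes did so. With an unadjusted p under 0.05 there were 23, and DESeq2 called 18 higher and none lower.

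All 3 RNA polymerase I subunits rose. POLR1C, a subunit that RNA polymerases I and III share, had 52.6 and 53.0 normalised CPM (counts per M counts) in BRM014 libraries, against 31.6 and 26.4 CPM in DMSO libraries. POLR1A, the largest catalytic subunit, had 178 and 170.4 CPM with BRM014, against 109 and 116 CPM with DMSO. Both BRM014 libraries were above both DMSO libraries for each gene. The log2 fold changes were 0.87 ± 0.13 (SE) for POLR1C and 0.63 ± 0.09 for POLR1A, with edgeR adjusted p of 3.25e-05 and 3.00e-05. POLR1B, the second catalytic subunit, rose by 0.56 ± 0.10 (edgeR adjusted p = 0.000373).

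Of the 8 small subunit factors, 7 were called higher. RRP9 (a U3 ribonucleoprotein component, 0.27 ± 0.12) missed the threshold (edgeR adjusted p = 0.0865). Its BRM014 libraries, at 45.8 and 43.6 CPM, still stood above its DMSO libraries, at 39.9 and 34.9 CPM. RRP12, a factor of small subunit maturation and export, had 107 and 105 CPM in BRM014 libraries, against 58.3 and 60.7 CPM in DMSO libraries. Its 2 groups lay far apart, with a log2 fold change of 0.83 ± 0.10 (edgeR adjusted p = 3.88e-06), the smallest adjusted p of the set. UTP20 rose by 0.72 ± 0.13, UTP15 by 0.57 ± 0.14, NOP14 by 0.52 ± 0.10, WDR43 by 0.50 ± 0.10, TSR1 by 0.50 ± 0.10 and BYSL by 0.47 ± 0.12 on the log2 scale. These 6 all take part in early or late steps of small subunit assembly.

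Of the 10 large subunit factors, 6 were called higher. PES1, BOP1 and WDR12, which bind each other as the PeBoW complex, rose by 0.45 ± 0.10, 0.43 ± 0.12 and 0.50 ± 0.09 on the log2 scale. RRS1, which brings the 5S ribonucleoprotein into the subunit, rose by 0.57 ± 0.12, GRWD1 by 0.50 ± 0.11 and NOP16 by 0.39 ± 0.12. The other 4, NOP2, RRP1B, PPAN and GNL3, were not called, and their values lay between -0.02 and 0.23. Among the nucleolar proteins with several roles, DDX21, an RNA helicase, had 369 and 321 CPM with BRM014, against 182 and 219 CPM with DMSO. The groups did not overlap and the log2 fold change was 0.79 ± 0.10 (edgeR adjusted p = 1.03e-05). NOLC1, a chaperone of small nucleolar ribonucleoproteins, rose by 0.34 ± 0.09 and MYBBP1A by 0.37 ± 0.10. The most abundant members showed no call. NCL had 1757 and 1628 CPM with BRM014, against 1649 and 1733 CPM with DMSO, and these libraries overlapped. NPM1 had 1625 and 1519 CPM with BRM014, against 1459 and 1503 CPM with DMSO. Of the 6 modification proteins only GAR1 was called higher, by 0.46 ± 0.14, and that call was lost under 5 of 11 alternatives. DKC1 came near the threshold at 0.23 ± 0.09 (edgeR adjusted p = 0.0564), with 132 and 132 CPM with BRM014, against 109 and 116 CPM with DMSO. NHP2 was at 0.16 ± 0.11, and the C/D box proteins NOP56, NOP58 and FBL lay between 0.11 and 0.19.

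**Figure D1:**
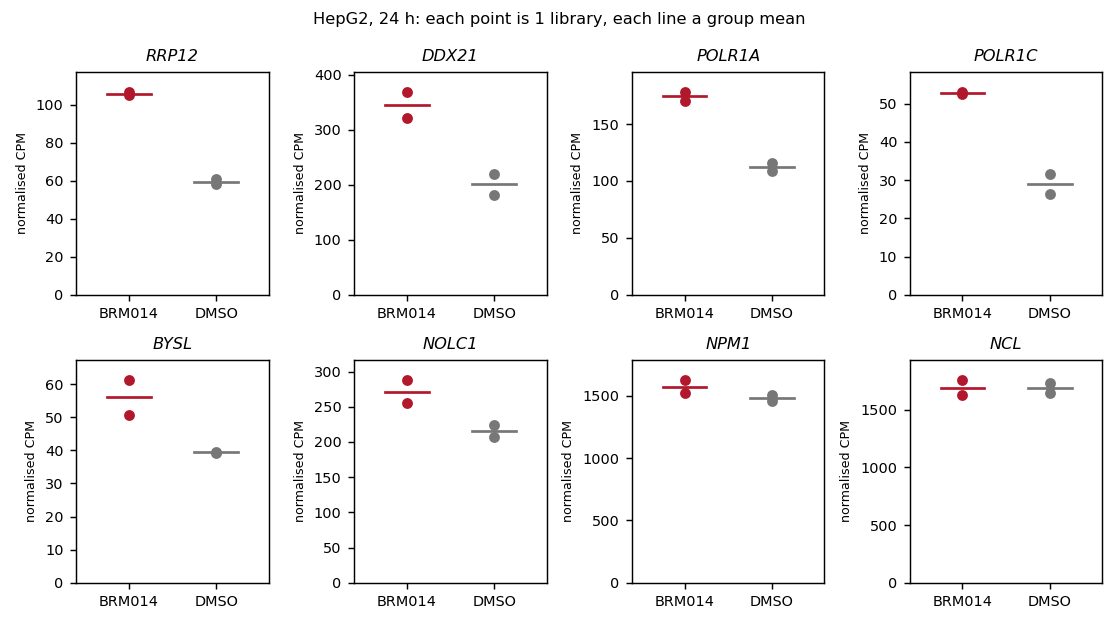
Normalised CPM (y axis, starting at 0) of 8 members in the 4 HepG2 libraries, with BRM014 on the left and DMSO on the right of each panel; points are libraries and lines are group means. The BRM014 libraries sit above the DMSO libraries for RRP12, DDX21, POLR1A, POLR1C, BYSL, NOLC1 and NPM1, of which NPM1 was not called, and the groups overlap for NCL.

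MYC rose as well, with 320.3 and 325 CPM in BRM014 libraries, against 234 and 247 CPM in DMSO libraries. The log2 fold change was 0.42 ± 0.09 (edgeR adjusted p = 0.000745). Whether MYC had a part in the members' values was not tested, here or in any other comparison. Of the members with a promoter window, 6 of the 9 with the E-box and 10 of the 18 without it were called higher, with median log2 fold changes of 0.45 and 0.42. With BRM014 at 6 h in GM12878 without a stimulus, 1 of the 9 and 5 of the 18 were called lower (medians -0.03 and -0.07), where 20.1% of all genes were. With Dex in the panel, 4 of the 9 and 6 of the 18 were called lower (medians -0.12 and -0.10), where 12.7% of all genes were. No difference between these groups was tested. Among 109 other ribosome biogenesis genes, 41 rose and 4 fell, with a median of 0.22. NOC3L (large subunit, 1.08 ± 0.11), HEATR1 (small subunit and ribosomal RNA transcription, 0.83 ± 0.10) and DHX37 (a helicase of the small subunit, 0.91 ± 0.11) rose, and MPHOSPH10 (small subunit, -0.51 ± 0.10), EIF6 (which keeps the subunits apart, -0.48 ± 0.11) and the helicase DDX24 (-0.32 ± 0.10) fell. Of 19 other genes of RNA polymerase I and its factors, 6 rose and 3 fell. Of 79 ribosomal protein genes, 1 rose and 4 fell, with a median of -0.05. Scaling by library totals moved the median of all genes to 0.10 and that of the members to 0.55, with 26 members higher and none lower, and changed the calls over all genes to 3663 higher and 2487 lower, against 2580 and 3037 with TMM scaling. With TMM scaling, the count of higher members did not fall without the shallow BRM014 replicate 2, but it did when another library was left out, as given at the end.

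In GM12878 cells, BRM014 at 6 h gave small changes, whose direction over the set depended on the scaling. Tests of whether these changes differed between cells without a stimulus and cells with Dex or IFNg called no member, as given below. Without a stimulus, 1 member was higher and 8 were lower than with DMSO, where 18.4% of all 15183 genes tested were called higher and 20.1% lower. The members' median log2 fold change was -0.06, against 0.01 over all genes, and the range was -0.30 to 0.18. The count of lower members, 8 of 33, stood near that background.

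RRP1B, a nucleolar protein of large subunit assembly, had 82.4 and 88.9 CPM in BRM014 libraries, against 106 and 105 CPM in DMSO libraries. The groups lay apart, and the log2 fold change was -0.30 ± 0.06 (edgeR adjusted p = 7.86e-05). NOLC1 had 154 and 154 CPM with BRM014, against 184 and 176 CPM with DMSO (-0.23 ± 0.05, edgeR adjusted p = 0.000333). DDX21 had 172 and 172 CPM with BRM014, against 196 and 210 CPM with DMSO (-0.24 ± 0.05, edgeR adjusted p = 0.000816). Both treated libraries were the lower ones for both genes. TSR1, which acts late in small subunit assembly, had 76.3 and 78.6 CPM with BRM014, against 95.7 and 89.2 CPM with DMSO (-0.25 ± 0.06, edgeR adjusted p = 0.00176). The other members that fell were DKC1 (the pseudouridine synthase of the H/ACA particles, -0.23), NOP14 (-0.22), GNL3 (nucleostemin, a nucleolar GTPase, -0.19) and NCL (-0.18). RRP12 was the exception, with 46.0 and 50.8 CPM in BRM014 libraries, against 44.5 and 41.2 CPM in DMSO libraries. Its log2 fold change was 0.18 ± 0.07 (edgeR adjusted p = 0.0432), and DESeq2 did not call it, nor did the fit without BRM014 replicate 2 or without DMSO replicate 2.

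The same contrast was made in cells that had IFNg or Dex, with their own controls. With IFNg, 12 members were lower and none higher, where 18.7% and 15.0% of all genes were called. The members' median there was -0.15, and DDX21 fell the most, to 157 and 166 CPM with BRM014, against 211 and 235 CPM with DMSO (-0.47 ± 0.06, edgeR adjusted p = 5.32e-08). The highest value of any member in that arm was 0.10. With Dex, 7 members were lower and 4 higher, where 20.6% and 17.1% of all genes were called, and the median was -0.00. The 4 were RRP12 (0.40 ± 0.07), WDR12 (0.26 ± 0.08), LYAR (a nucleolar zinc finger protein, 0.25 ± 0.09) and UTP20 (0.23 ± 0.08). RRP12 had 48.3 and 50.8 CPM with BRM014 and Dex, against 39.0 and 36.0 CPM with DMSO and Dex, and these groups did not overlap.

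Calls in the 3 arms, which share no libraries, had 6 lower members of 33 in common, where 12.4% of all genes were called lower in all 3. These were NCL, NOLC1, DDX21, NOP14, TSR1 and RRP1B, out of 8 lower in the vehicle arm, 12 in the IFNg arm and 7 in the Dex arm. No member was called higher in all 3, as 8.81% of all genes were. Over the 3 arms, 16 members were below 0 in every arm and 3 were above 0 in every arm, where 33.7% and 34.5% of all genes were. These counts depended on the scaling. With library totals, NOLC1 and RRP1B were called lower in all 3 arms and RRP12 higher, where 8.85% and 16.9% of all genes were. With that scaling, 9 members were below 0 in every arm and 13 were above it, where 24.0% and 48.0% of all genes were.

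**Figure D2:**
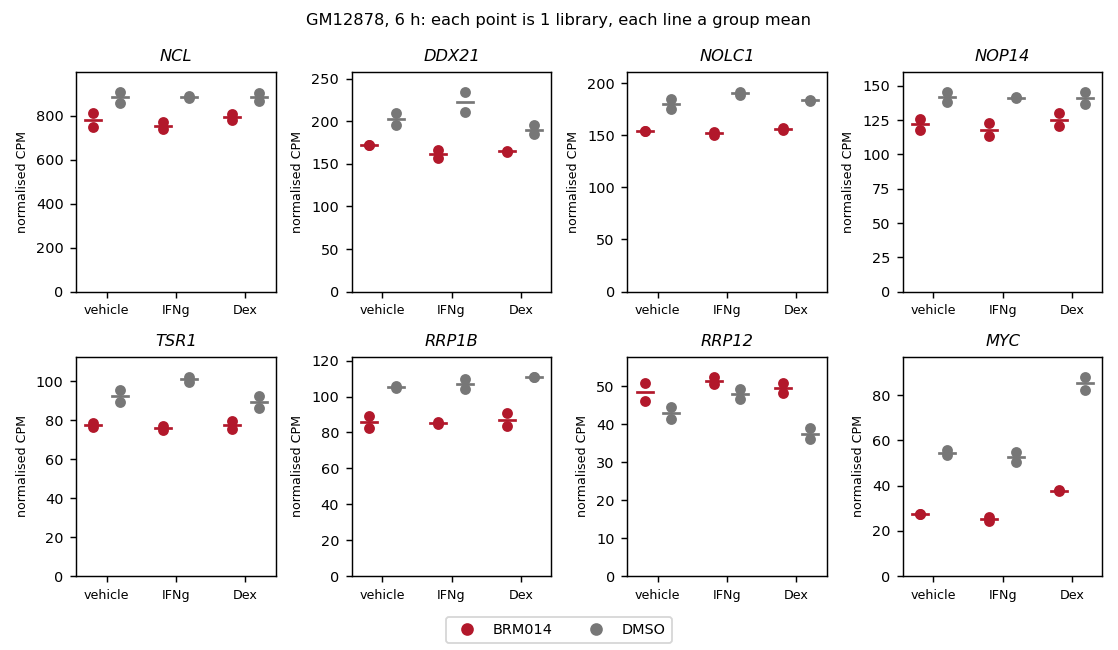
Normalised CPM (y axis, starting at 0) in GM12878 at 6 h for the 6 members called lower in all 3 arms (with library totals, NOLC1 and RRP1B alone), for RRP12 and for MYC; within each arm BRM014 libraries (red) are left of DMSO libraries (grey), points are libraries and lines are group means. MYC shows the widest gap, and the 6 members sit slightly lower with BRM014 in each arm.

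MYC moved much more than any member. With BRM014 and no stimulus it had 27.5 and 27.5 CPM, against 53.6 and 55.8 CPM with DMSO. The log2 fold change was -0.99 ± 0.07 (edgeR adjusted p = 6.75e-13), and it was -1.06 with IFNg and -1.17 with Dex. Among the 109 other ribosome biogenesis genes, 15 rose and 13 fell in the vehicle arm, with a median of -0.03. PELP1 (0.42 ± 0.07), DIMT1 (a methyltransferase of the small subunit, 0.46 ± 0.08) and the exosome subunit EXOSC2 (0.36 ± 0.08) rose, and DDX24 (-0.36 ± 0.05), SBDS (which helps release EIF6 from the large subunit, -0.53 ± 0.08) and the exportin XPO1 (-0.28 ± 0.05) fell. Of the 19 RNA polymerase I genes 3 rose and 2 fell, and of the 79 ribosomal protein genes none rose and 1 fell. In the IFNg arm, where 12 members fell, 5 of the other ribosome biogenesis genes rose and 27 fell, with a median of -0.10. The ribosomal protein genes there had a median of -0.09, with 4 lower, none higher and all 79 below 0. In the Dex arm 14 other ribosome biogenesis genes rose and 12 fell, with a median of 0.02, and 1 ribosomal protein gene fell.

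The direction of the whole set in GM12878 depended on scaling. With library totals in place of TMM factors, the median of all genes moved to 0.10, 0.12 and 0.11 in the vehicle, IFNg and Dex arms, and that of the members to 0.03, -0.04 and 0.11. The members' calls became 2 higher and 5 lower in the vehicle arm, 2 higher and 8 lower in the IFNg arm, and 11 higher and 2 lower in the Dex arm. Over all 15183 genes in the vehicle arm 4274 were then higher and 2394 lower, against 2795 and 3051 with TMM scaling. These counts were 4014 and 2034 in the IFNg arm, against 2275 and 2834. In the Dex arm they were 4240 and 2336, against 2595 and 3135. In the Dex arm, the count of 11 members also fell to 6 without BRM014 replicate 1 and to 3 without DMSO replicate 1.

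At 1 h, no member was called with BRM014 in any arm by edgeR or DESeq2. At an unadjusted p under 0.05 there were 0 members in the vehicle arm, 1 in the IFNg arm and 2 in the Dex arm. Over all genes, 0.599% were called higher and 1.46% lower in the vehicle arm, 0.619% and 1.58% in the IFNg arm, and 0.58% and 1.33% in the Dex arm. MYC had 53.5 and 56.4 CPM with BRM014 at 1 h, against 56.4 and 54.7 CPM with DMSO, and these libraries overlapped (-0.02 ± 0.06). The test of the 6 h effect against the 1 h effect in the vehicle arm called 2 members lower, NOLC1 (-0.22 ± 0.07, edgeR adjusted p = 0.0189) and RRP1B (-0.25 ± 0.08, edgeR adjusted p = 0.0240), where 11.4% of all genes were called lower and 7.34% higher. Each of these 2 calls was lost when some single libraries were left out: no member was called without BRM014 1 h replicate 2, BRM014 6 h replicate 1, DMSO 1 h replicate 2 or DMSO 6 h replicate 1. MYC differed by -0.98 ± 0.10 in that test. In the DMSO libraries without a stimulus, 6 h against 1 h gave 1 call, NOP56 (a scaffold of the C/D box particles), which had 142 and 155 CPM at 6 h, against 172 and 169.7 CPM at 1 h (-0.20 ± 0.05, edgeR adjusted p = 0.0395; 1.12% of all genes were called higher and 0.31% lower). That call was lost without either 1 h replicate or without 6 h replicate 1.

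Whether the response to BRM014 differed between the lines was tested in 1 fit of both experiments. The HepG2 effect at 24 h exceeded the GM12878 effect at 6 h for 21 members and fell short of it for none, where the same was called for 11.2% and 16.5% of all 16807 genes. Median differences were 0.36 over the members and -0.08 over all genes, on the log2 scale. DDX21 differed the most, by 0.96 ± 0.12 (edgeR adjusted p = 4.09e-07), and after it POLR1C by 0.83 ± 0.14, TSR1 by 0.70 ± 0.11 and NOP14 by 0.67 ± 0.09. The spread in this fit was estimated over all 28 libraries, of which 4 were HepG2. For NOP14 the SE of the difference, 0.0946, was below the 0.0966 of its HepG2 effect fitted alone. The SEs and adjusted p of this test may thus understate the spread in HepG2, and the count of 21 rests on them. Of the 8 members lower in the GM12878 vehicle arm, 4 were called higher in HepG2, and 7 had values above 0 there. Of all 33 members, 20 were called higher in HepG2 and 32 had values above 0. MYC differed by 1.35 ± 0.10. Cell line, exposure time, medium and the pretreatment schedule changed together in this contrast and cannot be told apart.

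**Figure D3:**
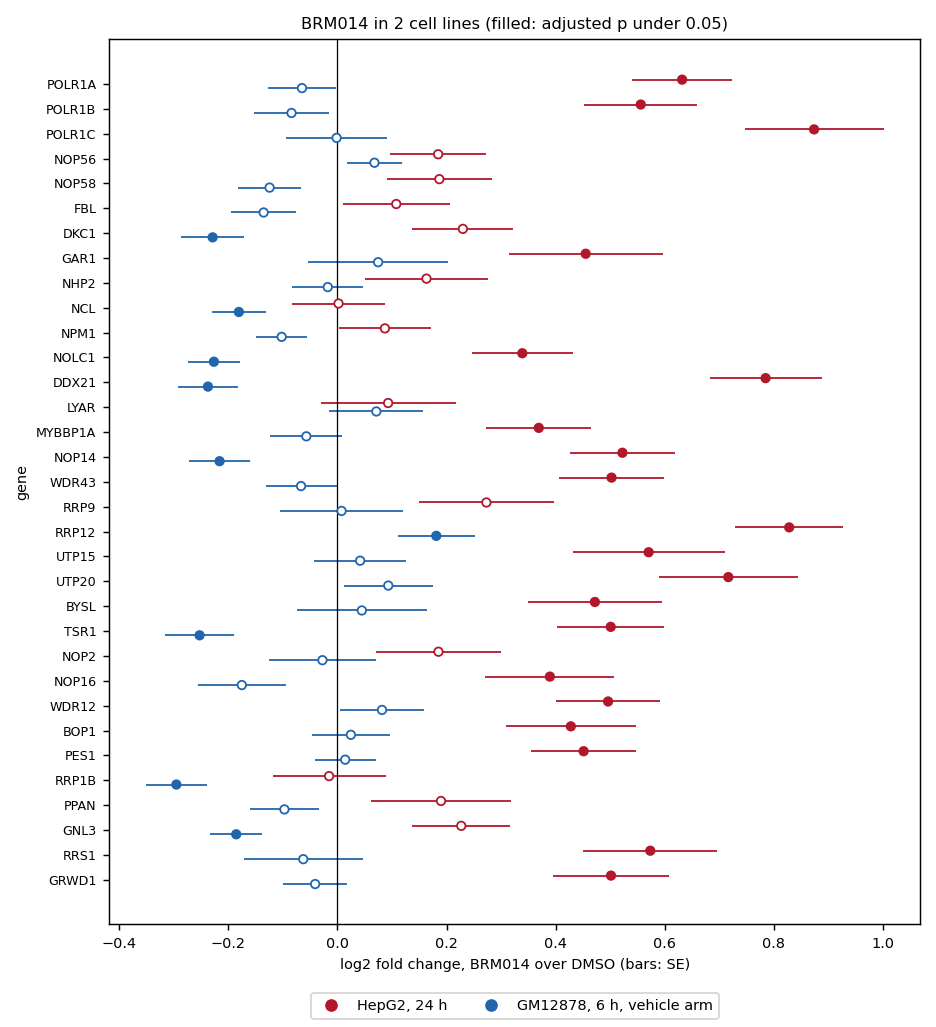
Log2 fold change of BRM014 over DMSO (x axis, bars are SE) for each of the 33 members (y axis) in HepG2 at 24 h (red) and in GM12878 at 6 h without a stimulus (blue); filled points have an adjusted p under 0.05. Red points lie between -0.02 and 0.87 with 20 filled, and blue points between -0.30 and 0.18 with 9 filled.

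In the GM12878 panel, Dex lowered part of the set. There, 12 members were lower and none higher after 6 h than in the 4 vehicle libraries, where 12.7% and 13.0% of all 15775 genes were called. The members' median log2 fold change was -0.10, against -0.00 over all genes, and 27 of 33 were below 0. In 13 members both Dex libraries were below all vehicle libraries, where 19.4% of all genes were. PPAN, a large subunit factor, had 58.2 and 59.2 CPM with Dex, against 76.6 and 75.4 CPM with DMSO and 87.9 and 75.9 CPM with PBS. It fell by 0.42 ± 0.06 on the log2 scale (edgeR adjusted p = 7.16e-07), and no alternative ended that call. PES1 had 86.7 and 82.7 CPM with Dex, against 95.2 and 99.4 CPM with DMSO and 98.1 and 93.7 CPM with PBS (-0.19 ± 0.05, edgeR adjusted p = 0.00399). LYAR had 18.0 and 17.6 CPM with Dex, against 22.6 and 21.5 CPM with DMSO and 21.3 and 21.4 CPM with PBS (-0.29 ± 0.08, edgeR adjusted p = 0.00506). For each of these genes every Dex library was below every vehicle library. DDX21 had 157 and 165 CPM with Dex, against 193 and 178 CPM with DMSO and 165 and 188 CPM with PBS (-0.17 ± 0.05, edgeR adjusted p = 0.00524), and its higher Dex library was level with the lower PBS library. The small subunit factors UTP15 (-0.31), BYSL (-0.26), RRP12 (-0.20) and UTP20 (-0.17), the large subunit factors NOP16 (-0.22) and GRWD1 (-0.20), and the C/D box proteins NOP58 (-0.19) and FBL (-0.12) fell too. No subunit of RNA polymerase I and no H/ACA protein was called.

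The count of 12 rested on both Dex libraries: it was 6 without replicate 1 and 5 without replicate 2, and DESeq2 called 7. The same treatment in the pretreatment experiment, which shares no library with the panel, called 1 member lower, PPAN, and none higher, where 7.53% and 8.06% of all genes were called. PPAN had 62.5 and 64.6 CPM with Dex, against 81.9 and 74.9 CPM with vehicle (-0.30 ± 0.06, edgeR adjusted p = 0.000754), and the groups lay apart. Of the 12 members lower in the panel, 11 were below 0 in this experiment, with a median of -0.11 and a range of -0.30 to 0.03. Of all 33 members, 22 were below 0 there, with a median of -0.045. In the BRM014 arm of that experiment 6 of the 12 were below 0, with a median of 0.01. The count of called members was 2 without Dex replicate 1, without vehicle replicate 1 or with library totals. In cells with BRM014, Dex for 6 h called no member by edgeR or DESeq2, with 2 at an unadjusted p under 0.05, where 4.1% of all genes were called lower and 3.67% higher. The test of the Dex effect with BRM014 against that with DMSO also called none (1 member at an unadjusted p under 0.05; 1.04% of all genes higher and 1.72% lower). Dex for 1 h called none in the DMSO arm (1 unadjusted; 0.362% of all genes higher and 0.244% lower) or the BRM014 arm (0 unadjusted; 0.178% higher and 0.0988% lower).

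MYC rose with Dex. It had 87.5 and 79.6 CPM in the panel with Dex, against 51.8 and 51.0 CPM with DMSO and 63.0 and 57.5 CPM with PBS (0.59 ± 0.05, edgeR adjusted p = 1.69e-10). In the pretreatment experiment it rose by 0.64 ± 0.06 at 6 h and by 0.30 ± 0.06 at 1 h with DMSO, and by 0.46 ± 0.07 and 0.38 ± 0.06 with BRM014. The 1 h call in the DMSO arm was lost when any 1 of its 4 libraries was left out, and that in the BRM014 arm without vehicle replicate 1. In the panel contrast MYC was called higher and 12 members lower, and a link between them was not tested. Among the 109 other ribosome biogenesis genes, 6 rose and 19 fell in the panel, with a median of -0.07. LTV1 (small subunit, -0.43 ± 0.07), the GTPase GTPBP4 (-0.26 ± 0.05) and RRP1 (a paralog of RRP1B, -0.31 ± 0.06) fell, and EFL1 (a GTPase that works with SBDS, 0.43 ± 0.07), RRP7A (0.35 ± 0.06) and IMP4 (0.17 ± 0.05), both of the small subunit, rose. No ribosomal protein gene was called by edgeR, and 0 of the 79 had an unadjusted p under 0.05. In the DMSO arm of the pretreatment experiment, Dex for 6 h gave another split, with 5 other ribosome biogenesis genes higher and 6 lower and a median of -0.01. The 79 ribosomal protein genes were all above 0 there, with a median of 0.09, 1 called higher and 26 at an unadjusted p under 0.05.

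**Figure D4:**
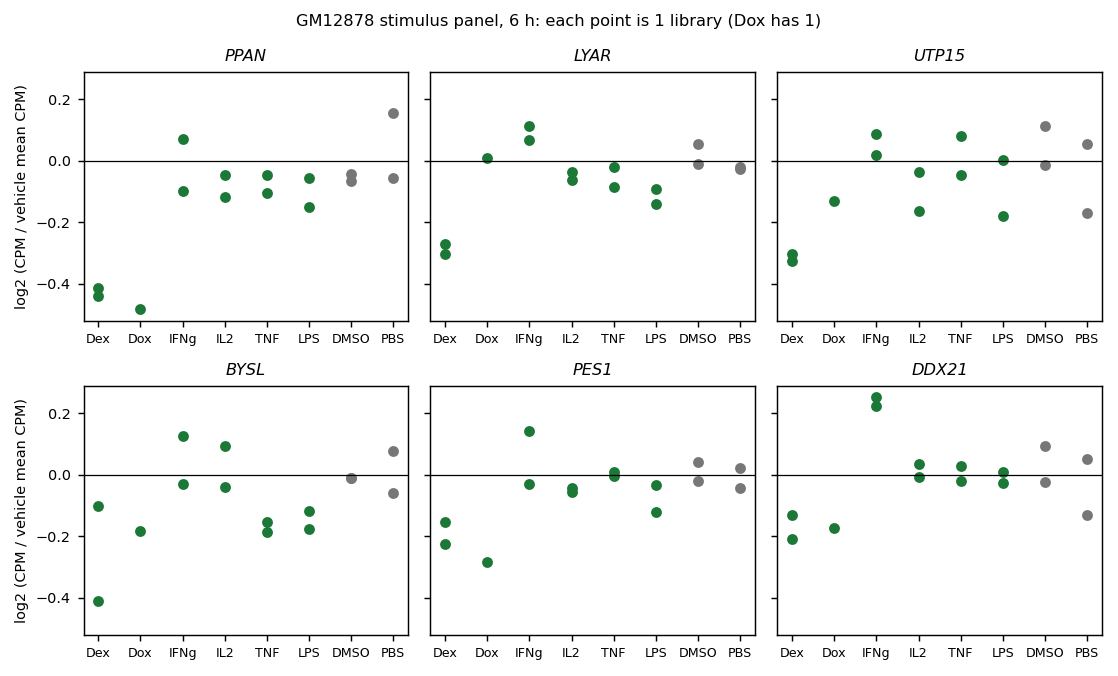
Level of 6 members called lower with Dex in each library of the panel, as the log2 ratio of its CPM to the mean of the 4 vehicle libraries (y axis); groups run along the x axis with DMSO and PBS at the right (grey), points are libraries, and Dox has 1. The Dex libraries lie below all vehicle libraries for PPAN, LYAR, UTP15, BYSL and PES1, by the widest margin for PPAN; for DDX21 the higher Dex library is level with the lower PBS library, and the IFNg libraries are the highest.

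The remaining stimuli left most members uncalled. IFNg in the panel raised 4 members and lowered none, where 7.11% of all genes were called higher and 4.75% lower. These were DDX21 (0.24 ± 0.05), RRP9 (0.22 ± 0.08), TSR1 (0.19 ± 0.05) and NOLC1 (0.13 ± 0.04). DDX21 had 216 and 212 CPM with IFNg, above all 4 vehicle libraries, whose values are given with Dex. Only 1 of the 4 was called without IFNg replicate 1, and 2 with upper-quartile scaling or library totals. In the pretreatment experiment IFNg raised PES1 alone (119 and 115 CPM with IFNg, against 102 and 99.7 CPM with vehicle; 0.21 ± 0.06, edgeR adjusted p = 0.0152; 3.47% of all genes were called higher and 3.15% lower), a call lost without IFNg replicate 1, without vehicle replicate 2 or with the compared groups alone in the fit. With BRM014, IFNg called none by edgeR or DESeq2 (1 at an unadjusted p under 0.05; 1.5% of all genes higher and 0.27% lower), and neither did the test of its effect with BRM014 against that with DMSO (2 unadjusted; 0.0461% and 0.151%). IL2, TNF and LPS called no member by either tool, with 1, 0 and 3 at an unadjusted p under 0.05, where IL2 called 0.197% of all genes higher and 0.00634% lower, TNF 0.019% higher and 0.0% lower, and LPS none. DMSO against PBS called none either (4 unadjusted; 0.184% of all genes higher and 0.254% lower), but 3 were called without PBS replicate 2. MYC was not called in any of these, with values between -0.22 and 0.05.

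With a single library, Dox could not be tested. The log2 ratios, of CPM plus 1 over the mean of the 4 vehicle libraries plus 1, had a median of -0.10 over the members and -0.01 over all genes. No member passed 1.5-fold, as 1.44% of all genes did upward and 1.45% downward. Below all 4 vehicle libraries stood 19 members, above them 5 and between them 9, where 28.3% of all genes were below and 28.0% above. These are the same vehicle libraries that Dex was set against. PPAN had the lowest ratio, -0.48, with 56.5 CPM, against 75.4 to 87.9 CPM in the vehicle libraries. RRS1 followed with 14.8 CPM, against 18.4 to 18.9 CPM (-0.32), and POLR1C with 19.6 CPM, against 23.0 to 27.2 CPM (-0.30). All 3 subunits of RNA polymerase I and 7 of the 10 large subunit factors were below the vehicle range. The highest ratios belonged to WDR43 (77.1 CPM, against 61.9 to 71.7 CPM, 0.21), NOP2 (an rRNA methyltransferase, 100.3 CPM, against 87.6 to 96.7 CPM, 0.12) and WDR12 (38.9 CPM, against 34.5 to 37.9 CPM, 0.11). MYC was at 24.9 CPM, against 51.0 to 63.0 CPM (-1.13). None of these values has a replicate check.

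Read gene by gene over the comparisons, members fell into different patterns. DDX21 was called in 6 of 8 comparisons, more than any other member. The share of all genes called in as many, or in none, is not given. The Dex and IFNg contrasts of the panel share their vehicle libraries. DDX21 was lower with BRM014 in all 3 GM12878 arms (not in the Dex arm with library totals) and with Dex in the panel, and higher with BRM014 in HepG2 and with IFNg in the panel. RRP12 was called higher with BRM014 in HepG2 and in the vehicle and Dex arms of GM12878, and lower with Dex in the panel. It was not called with BRM014 in the IFNg arm (0.10 ± 0.07) or with Dex in the pretreatment experiment (-0.18 ± 0.07), and its panel call was lost under 5 of 15 alternatives. RRP1B was called lower in all 3 GM12878 arms and in HepG2 had 120 and 101 CPM with BRM014, against 109 and 118 CPM with DMSO, groups that overlap. PPAN was called with Dex in both experiments and in no BRM014 comparison. NHP2, an H/ACA protein, NOP2 and NOP56 were called in none of the 8 comparisons drawn by gene and role.

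**Figure D5:**
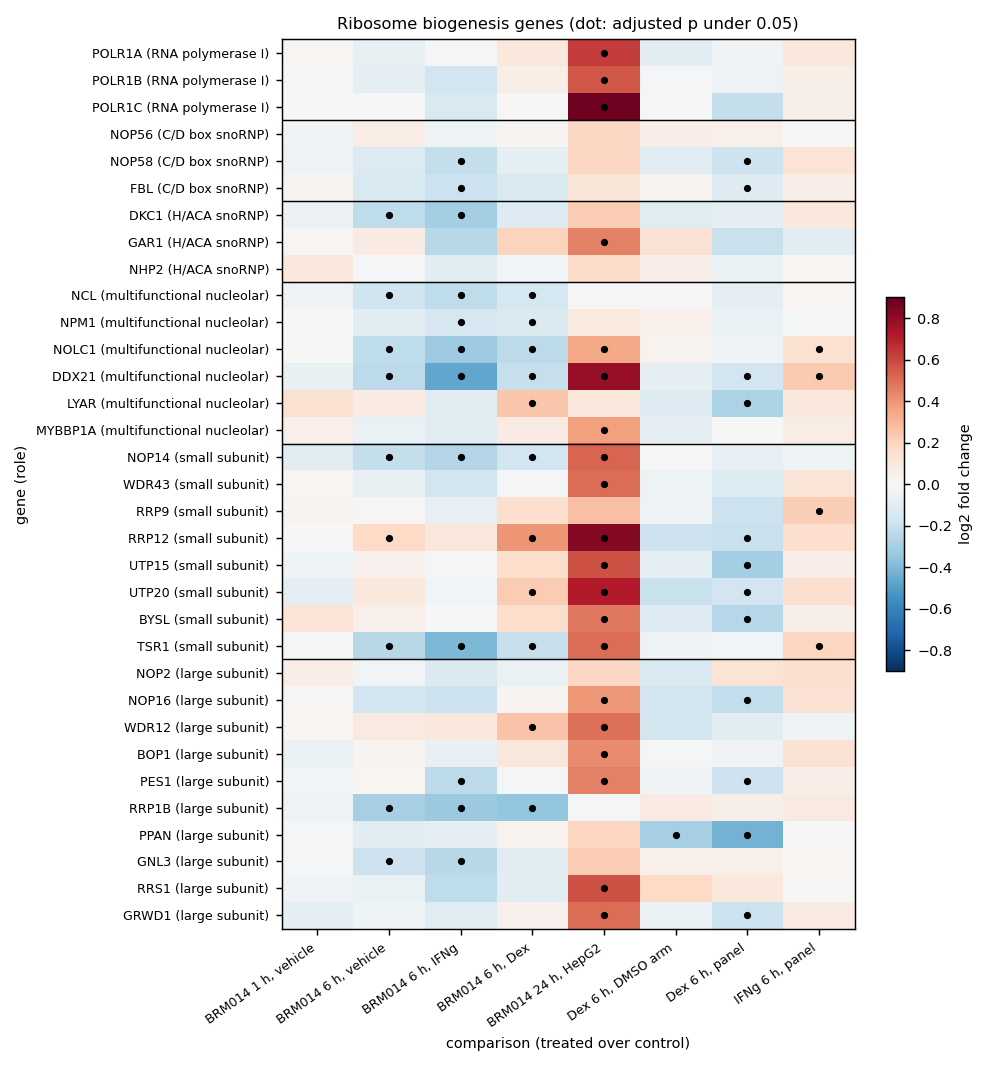
Log2 fold changes (colour, red higher and blue lower in treated cells) of the 33 members (rows, grouped by role) in 8 comparisons (columns); a black dot marks an adjusted p under 0.05. The HepG2 column holds 20 dots, all in red cells, the BRM014 1 h column none, and the GM12878 6 h columns hold 9, 12 and 11.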

How the data were processed

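RNA-seq libraries of GM12878 and HepG2 were grouped by their titles, in the groups given with the results. The deposited files hold RSEM expected counts per gene, estimated and not scaled for depth, and TPM, per the file headers. STAR, RSEM and hg38, without versions, are named by the submitters' processing notes; the annotation release is not stated there. Of 59526 identifiers, 58780 are Ensembl genes, and 58207 of these matched a symbol of GENCODE 44. The other 746 hold 0 counts and were left out.

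Expected counts were rounded (between 2.51% and 4.80% of values were not whole, within 0.005). Experiments were fitted apart with edgeR 4.0.16 under R 4.3.3, using filterByExpr, TMM scaling and the robust quasi-likelihood test, 2-sided: 15 panel libraries and 15775 genes, 24 pretreatment libraries and 15183 genes, 4 HepG2 libraries and 13349 genes, and 28 libraries and 16807 genes for the difference between lines. Calls were made at an adjusted p under 0.05 (Benjamini-Hochberg over all genes of a comparison). Each SE is the absolute log2 fold change divided by the square root of F. The labels do not tie DMSO or PBS to a stimulus, so panel stimuli were set against the mean of both. All 33 members passed the filter in every fit. CPM values are TMM-scaled.

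The members and gene lists were chosen with earlier results of these data known, and no list was tested as a set. Values in every library are given for up to 4 called members per direction with the smallest adjusted p in panel Dex, Dex at 6 h and BRM014 in the vehicle arm and HepG2, and for the 3 highest and lowest Dox ratios; up to 3 other ribosome biogenesis genes per direction are named likewise. Further library values were chosen after they were seen. Replicate pairs differed by more than sampling noise (lowest chi-square per degree of freedom 2.52). Alternatives were DESeq2 1.42.0, its size factors, upper-quartile and total scaling, no filter, a replicate block, other control or fit groups and each library left out. The fits were tested on simulated data.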

Additional observations from a re-analysis of the deposited data

Results flagged for a closer look

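The effect of BRM014 differed between HepG2 at 24 h and GM12878 at 6 h, by a test of the difference itself, for MYC and for 21 members. Each difference was above 0, which says nothing of which line had the larger change: MYC was at 0.42 in HepG2 and at -0.99 in GM12878, and DKC1 was at 0.23 in HepG2 and at -0.23 in GM12878. The differences, HepG2 minus GM12878 on the log2 scale, were 1.35 for MYC, 0.96 for DDX21, 0.83 for POLR1C, 0.70 for TSR1, 0.67 for NOP14, 0.64 for POLR1A, 0.59 for RRP12, 0.58 for POLR1B and 0.58 for UTP20. They were 0.57 for RRS1, 0.52 for NOP16, 0.51 for WDR43, 0.51 for NOLC1, 0.49 for GRWD1, 0.48 for UTP15 and 0.40 for DKC1. The smallest were 0.37 for PES1, 0.36 for MYBBP1A, 0.36 for GNL3, 0.36 for WDR12, 0.33 for BOP1 and 0.26 for NOP58. NOP58 was the least stable of these, losing its call under 8 alternatives. As given above, the SEs of this test may understate the spread in HepG2, and these calls rest on them.

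The effect of BRM014 in the vehicle arm of GM12878 was lower at 6 h than at 1 h, again by a test of the difference, for MYC (-0.98), RRP1B (-0.25) and NOLC1 (-0.22). The MYC call held under every alternative run, while those of RRP1B and NOLC1 were lost with library totals and without some single libraries.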

How the results depend on the processing

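Of 105 gene results, 54 kept their call under every alternative run. Over these results and alternatives, 179 calls were lost and none reversed. Of 308 recomputed counts of called members, 278 were within 1.5 times the reported one. With each library left out in turn, the count ranged between 5 and 13 for panel Dex, 1 and 4 for panel IFNg, 0 and 3 for DMSO against PBS, 7 and 9, 9 and 13, and 3 and 9 for BRM014 at 6 h with vehicle, IFNg and Dex, 1 and 2 for Dex at 6 h with DMSO, 0 and 1 for Dex at 6 h with BRM014 and for IFNg at 6 h with DMSO, 0 and 3 for BRM014 by time, 0 and 1 for vehicle at 6 h against 1 h, 16 and 20 for HepG2, and 15 and 23 for the difference between lines. It was 0 throughout for the other comparisons. DESeq2 gave 7 members for panel Dex. Library totals gave 2 for panel IFNg, 2 for Dex at 6 h with DMSO, 1 for BRM014 by time (higher, not lower) and 0 for vehicle at 6 h against 1 h. Upper-quartile scaling gave 2 for panel IFNg. No filter gave 1 for IL2 and 0 for vehicle at 6 h against 1 h. With the compared groups alone, IFNg at 6 h with DMSO gave 0, BRM014 by time 1 and vehicle at 6 h against 1 h 0. The largest shift of the median of all genes under another scaling was 0.12 on the log2 scale.

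Same-numbered replicates did not deviate together: 1 of 21 pairs of groups in the panel and 8 of 66 in pretreatment had a correlation of deviations over 0.1. With the replicate block, BRM014 at 1 h with Dex gave 1 member in place of 0, BRM014 by time 3 in place of 2, HepG2 18 in place of 20, the difference between lines 20 in place of 21, and the other counts were as reported. In HepG2 the correlation was -0.161, and a crossed replicate block, chosen after seeing the data, called 25 members. HepG2 has 2 residual degrees of freedom and its shallowest library held 3.06 M counts, which limits the smallest change it can show; where a group is left with 1 library, that library is assumed to vary like the others.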
